A study of Mus musculus with 8 samples.

Results

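The genes described here are 10 imprinted genes of the mouse, Meg3, Rian, Mirg and Dlk1 of the Dlk1-Dio3 domain, and H19, Mest, Peg3, Grb10, Cdkn1c and Plagl1 of other imprinted domains. They are 10 of the 51822 gene symbols in the deposited tables, and all 10 passed the filter on low values. They were picked on measured values: Meg3, Rian and Mirg were lower with LAMZ than in control on both days. The levels of all 10 genes in LAMZ and control cells are therefore given as a description, with no result drawn from a test of them. Tests are given for the difference between days. The change of the LAMZ difference from day 7 to day 14 is built from the same differences, so for these genes it is a description too.

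LAMZ is locamidazole, which the title of the series calls a locomomimetic drug. Total RNA was sequenced from mouse cells that the sample labels call MC3T3-E1, a line of calvarial preosteoblasts, and that the title and methods call calvarial cells. All cells grew in osteogenic alpha-MEM (FBS at 10%, ascorbic acid, dexamethasone at 10 nM and β-glycerophosphate at 10 mM). The 4 groups were cells with DMSO (control) at day 7, cells with 1 µM LAMZ at day 7, cells with DMSO at day 14 and cells with 1 µM LAMZ at day 14, with 2 libraries each. The value column of day 7 LAMZ replicate 1 has a heading with V1 in place of LAMZ, its label says LAMZ, and whether the names mean the same compound is not stated. Nothing in the labels says that the 2 libraries of a group came from separate cultures, so every p-value measures the spread between these 8 libraries only. Values are RPKM as the authors deposited them, reads divided by gene length and library depth, and so a level per length. RPKM sums reads from both parental alleles, and the allele of origin was not measured. The files state no read number. Low values of genes with a single exon were whole reads at 3461200 to 5830000 mapped reads a library (96.0 to 97.1% of 885 to 1526 values a library, within 0.02 of a whole read).

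The label was checked against marker genes. Markers of osteoblasts were present in every library, at summed levels of 9652 and 11131 RPKM in the day 7 control libraries, 13755 and 13257 with LAMZ at day 7, 13916 and 13641 in the day 14 control libraries, and 20637 and 22422 with LAMZ at day 14. Col1a1, the main chain of bone collagen, was the most abundant of the 11. Markers of macrophages and leukocytes, which the label does not name, were also present in the control libraries. Their 16 measured genes summed to 468 and 612 RPKM in control at day 7 and to 1148 and 1187 in control at day 14. With LAMZ the sums were 9.48 and 7.65 at day 7 and 7.55 and 8.20 at day 14. The most abundant, Lyz2, was at 312 and 409 RPKM in control at day 7 and at 695 and 789 at day 14, against 8.20 and 6.27, then 5.99 and 5.29, with LAMZ. C1qa, C1qb, C1qc, Tyrobp and Laptm5 were listed at 0 in all 4 LAMZ libraries. RNA of these markers was thus present in the control libraries and nearly absent from the LAMZ libraries.

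Among the other marker lists, fibroblast and mesenchymal progenitor genes summed to 712 and 603 RPKM in control at day 7, 547 and 602 with LAMZ at day 7, 660 and 740 in control at day 14, and 403 and 362 with LAMZ at day 14, with Lum the most abundant. Smooth muscle and pericyte genes, led by Acta2, summed to 1207 and 1012, 1294 and 1610, 914 and 1105, and 2069 and 1940 RPKM in the same order. Adipocyte genes, led by Lpl, gave 43.3 and 31.0, 9.67 and 8.75, 63.4 and 126, and 11.4 and 12.3. Day 14 control replicate 2 stood apart from its partner in this list, with Fabp4 at 41.2 against 6.44 RPKM and Adipoq at 11.7 against 2.43. Chondrocyte genes, led by Col2a1, summed to 254 and 179, 452 and 473, 157 and 169, and 446 and 510 RPKM. Osteoclast genes summed to 91.8 to 126 RPKM, and limma called 0 of the 3 tested in any of the 5 comparisons (0 at an unadjusted p under 0.05). Skeletal muscle genes, led by Acta1, summed to 5.82 and 1.92, 3.63 and 5.57, 2.56 and 4.03, and 29.9 and 25.0 RPKM, with the day 14 LAMZ libraries the highest. Endothelial genes, led by Tek, summed to 1.29 to 3.45 RPKM. In bulk RNA, fewer cells of a type and less RNA per cell cannot be told apart, and the part that these cell types had in the levels of the imprinted genes was not tested.

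In mammals an imprinted gene is transcribed mainly from the allele of a single parent. Many imprinted domains are controlled by a region whose DNA methylation was set in the egg or sperm. In the Dlk1-Dio3 domain the maternal allele makes a chain of long noncoding RNAs (Meg3, Rian and Mirg) with many microRNAs and C/D box small nucleolar RNAs, and the paternal allele makes the messages of Dlk1, Rtl1 and Dio3. Many imprinted genes act on fetal growth, with paternally expressed genes such as Igf2 tending to promote it and maternally expressed genes such as Cdkn1c and Grb10 tending to restrain it, and Dlk1 and Meg3 are known in bone as modulators of osteoblast differentiation.

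The Dlk1-Dio3 genes lie on mouse chromosome 12. In the GENCODE M21 annotation of GRCm38, Dlk1 spans chr12:109452823-109463336 on the plus strand, Meg3 chr12:109541001-109571726, Rian chr12:109603940-109661716 and Mirg chr12:109729764-109749460, all on the plus strand. Rtl1 lies between Meg3 and Rian on the minus strand (chr12:109589193-109600330), Begain ahead of Dlk1 (chr12:109032187-109068217, minus strand), and Dio3 past Mirg (chr12:110279068-110281097, plus strand). The RefSeq set for GRCm38.p6 holds 111 mature microRNAs of 60 genes from Meg3 to Mirg, with 102 different seeds (bases 2 to 8). Of the mature forms, 3 lie inside Meg3, 6 inside Rian and 26 inside Mirg. Examples are printed here with the seed in capitals, picked by hand after the values were seen: 1 form from Meg3 and 2 from Mirg, both forms of 3 of the 9 pairs that share a seed, and 1 of the 2 forms each of H19, Mest and Igf2.

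In the Dlk1-Dio3 domain, all on the plus strand of chromosome 12, miR-770 lies inside Meg3 (chr12:109563710-109563731), miR-134 and miR-410 inside Mirg (chr12:109734145-109734166 and chr12:109743729-109743749), and miR-379, miR-411, miR-494 and miR-1193 between Rian and Mirg. miR-379-5p (chr12:109709065-109709085) and miR-1193-5p (chr12:109715716-109715735) share a seed, as do miR-379-3p (chr12:109709102-109709123) and miR-411-3p (chr12:109710225-109710246), and miR-410-5p and miR-494-5p (chr12:109715334-109715355). In all, 9 seeds were shared, each by 2 mature forms.
mmu-miR-770-5p: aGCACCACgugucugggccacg
mmu-miR-134-5p: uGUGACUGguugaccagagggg
mmu-miR-379-5p: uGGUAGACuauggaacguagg
mmu-miR-1193-5p: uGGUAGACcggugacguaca
mmu-miR-379-3p: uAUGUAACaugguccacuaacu
mmu-miR-411-3p: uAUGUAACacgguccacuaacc
mmu-miR-410-5p: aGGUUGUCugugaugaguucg
mmu-miR-494-5p: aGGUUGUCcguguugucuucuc

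Outside this domain, miR-675-5p lies inside H19 (chr7:142577112-142577133, minus strand), miR-335-5p inside Mest (chr6:30741314-30741336, plus strand) and miR-483-3p inside Igf2 (chr7:142654932-142654952, minus strand). None of these 3 seeds is shared with a form between Meg3 and Mirg.
mmu-miR-675-5p: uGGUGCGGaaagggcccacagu
mmu-miR-335-5p: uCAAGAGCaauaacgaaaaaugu
mmu-miR-483-3p: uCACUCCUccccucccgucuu

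Meg3, the first noncoding RNA of the chain, was at 30.1 and 30.1 RPKM in the day 7 control libraries and at 11.3 and 10.2 with LAMZ at day 7. At day 14 it was at 27.4 and 28.3 RPKM in control and at 7.57 and 6.66 with LAMZ. All 4 control libraries were above all 4 LAMZ libraries, and the lowest values were those of day 14 with LAMZ. The mean level was 2.81-fold lower with LAMZ at day 7 (10.7 ± 0.793 against 30.1 ± 0.0113 RPKM, SD, n = 2) and 3.92-fold lower at day 14 (7.12 ± 0.647 against 27.9 ± 0.626, SD, n = 2). On the log2(RPKM + 1) scale of the fit the differences were -1.41 (SE 0.11) and -1.83 (SE 0.11). Adding 1 RPKM before the log makes such a difference understate the ratio of a gene at a low level. These values rest on 588 to 2665 reads a library.

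Rian, which hosts a cluster of small nucleolar RNAs, was at 25.2 and 22.6 RPKM in control and 11.9 and 11.6 with LAMZ at day 7. Its levels at day 14 were 14.1 and 15.8 RPKM in control and 7.77 and 5.48 with LAMZ. Within each day the control libraries were above the LAMZ libraries, and the day 14 control libraries lay between the control and LAMZ libraries of day 7. Mirg, which hosts a cluster of microRNAs, was at 7.65 and 7.57 RPKM in control and 3.07 and 2.66 with LAMZ at day 7, and at 4.57 and 3.82 against 2.14 and 1.23 at day 14. It was the lowest of the 10 genes in every group, and its groups did not overlap within a day. The mean of Rian was 2.03-fold lower with LAMZ at day 7 and 2.26-fold lower at day 14 (log2 differences -0.96 and -1.08, SE 0.16 each). For Mirg the ratios were 2.65 and 2.49 (log2 differences -1.16 and -0.97, SE 0.18 each).

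Dlk1 encodes a membrane protein with EGF-like repeats, related to the Notch ligands, that holds back adipocyte and osteoblast differentiation. It was at 10.0 and 9.54 RPKM in control and 3.73 and 3.83 with LAMZ at day 7, and at 8.59 and 5.28 against 2.76 and 3.26 at day 14. Its LAMZ libraries were the 4 lowest, and the day 14 control libraries differed from each other more than any other pair (6.94 ± 2.34, SD, n = 2). The mean was 2.59-fold lower with LAMZ at day 7 and 2.31-fold lower at day 14 (log2 differences -1.17 and -0.96, SE 0.19 each). Dlk1 comes from the paternal allele and Meg3, Rian and Mirg from the maternal allele, so lower levels were measured for genes of both parental alleles.

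**Figure D1:**
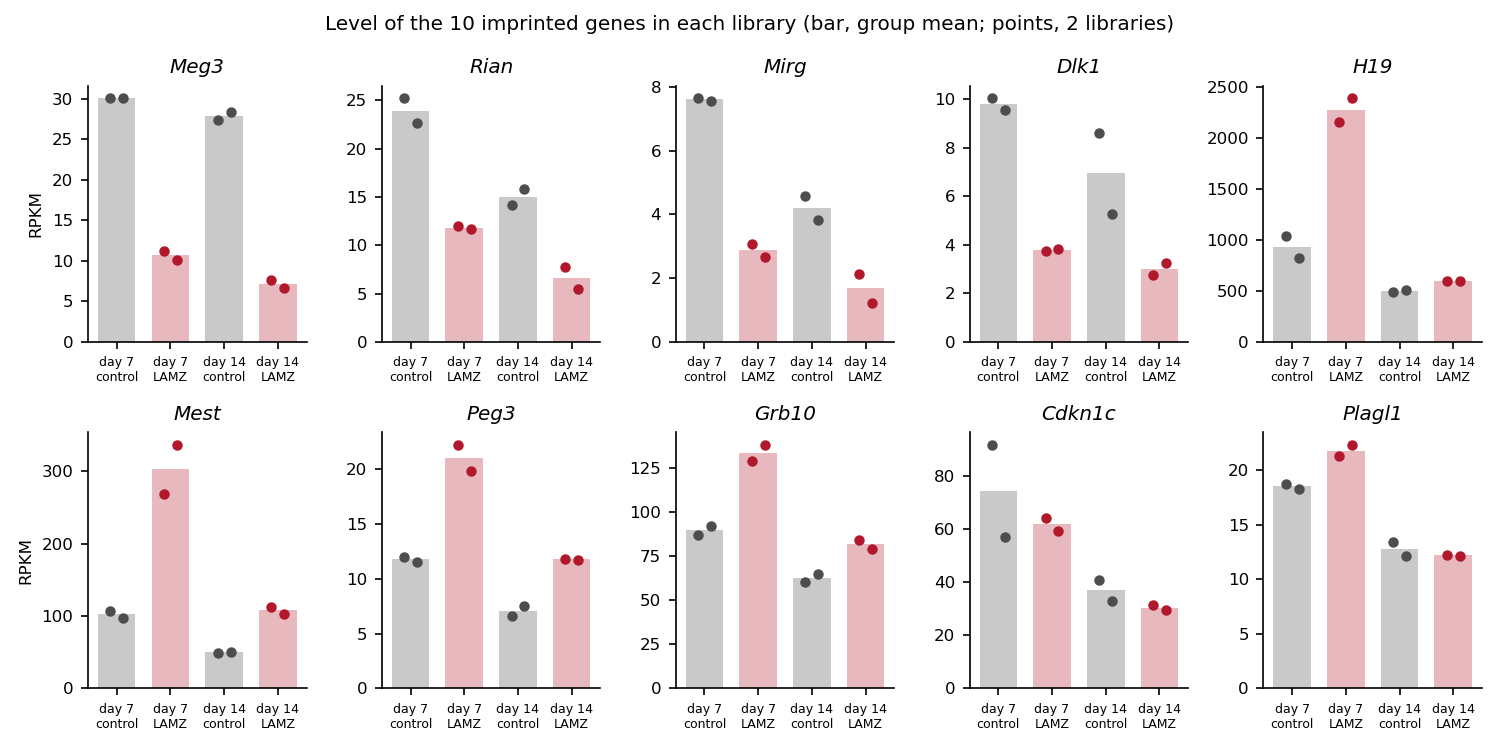
Level of the 10 imprinted genes in each library, in RPKM on an axis from 0. Bars are group means and points the 2 libraries of a group. Meg3, Rian, Mirg and Dlk1 were lower with LAMZ on both days (Meg3 at 11.3 and 10.2 against 30.1 and 30.1 at day 7), and Mest, Peg3 and Grb10 were higher, as a description of the values the genes were picked on.

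The other genes of the domain were not part of the set, and their LAMZ differences come from the fit over all 12514 genes with at least 1 RPKM in at least 2 libraries. A gene is called when its limma p, adjusted over these genes, is under 0.05. Rtl1, a retrotransposon-derived gene of the paternal allele needed in the placenta, was at 8.59 and 10.3 RPKM in control and 4.02 and 3.47 with LAMZ at day 7, and at 6.21 and 7.10 against 2.00 and 2.42 at day 14. The groups did not overlap, and Rtl1 was lower with LAMZ at day 7 (log2 difference -1.14, SE 0.14, adjusted p = 0.00241) and at day 14 (-1.26, SE 0.14, adjusted p = 0.000817). It was called under every alternative setting on both days. Rtl1 overlaps 6 microRNA genes on the opposite strand, and since the strand of counting is not stated, reads of the 2 strands cannot be told apart.

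Dio3, the deiodinase that inactivates thyroid hormone, was at 2.61 and 1.85 RPKM in control and 1.16 and 0.473 with LAMZ at day 7, from 5 to 20 reads. At day 14 it was at 9.27 and 9.04 RPKM in control and 5.32 and 3.33 with LAMZ. Within each day the LAMZ libraries were lower, and on both treatments the day 14 libraries were higher than those of day 7. The LAMZ difference was called at day 14 (log2 -0.96, SE 0.24, adjusted p = 0.0247) and was not called at day 7 (-0.85, SE 0.24, adjusted p = 0.0565). The change between days was -0.11 (adjusted p = 0.908). The day 14 call was lost without day 14 control replicate 1 (adjusted p = 0.0987), without day 14 control replicate 2 (0.0995) and without day 14 LAMZ replicate 2 (0.145), and also with a pseudocount of 0.1 (0.0763), with no filter on low values (0.0808) and with every library at the same median (0.0547). The day 7 difference was called with a pseudocount of 0.1 (0.0475), with every library at the same sum (0.0163) and with the replicate number as a block (0.0216). Begain, at the edge of the domain, was at 0.311 to 1.35 RPKM and was not called (log2 -0.22 and -0.63, adjusted p = 0.598 and 0.0921), though at day 14 it was with every library at the same sum (-0.82, adjusted p = 0.0226). Dio3os, the fourth gene listed, is not in the tables.

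Of 11 genes that flank the domain on chromosome 12, 9 were tested. At day 7 limma called 0 of them (2 at an unadjusted p under 0.05), against 12.8% of all tested genes called in either direction, with a median log2 difference of -0.03 against -0.08. At day 14 it called 1, Wars, the tryptophanyl-tRNA synthetase, as higher, against 23.0% in either direction, so that counts in a list this short do not set it apart from all genes, and the median was -0.11 against -0.15. Wars was at 11.2 and 9.88 RPKM in control and 8.37 and 8.91 with LAMZ at day 7, and at 8.64 and 10.1 against 25.6 and 21.0 at day 14 (log2 difference 1.23, SE 0.14, adjusted p = 0.00082). Only the day 14 LAMZ libraries were high, and the change of the LAMZ difference between days was called (1.48, SE 0.20, adjusted p = 0.0355), a call lost without any library other than day 7 control replicate 2 (adjusted p = 0.0648 to 0.135), with no filter on low values (0.103) and with the replicate number as a block (0.0626). With every library rescaled to the same sum, 3 of the 9 were called at day 7 and 5 at day 14, in a setting that lowers most genes.

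**Figure D2:**
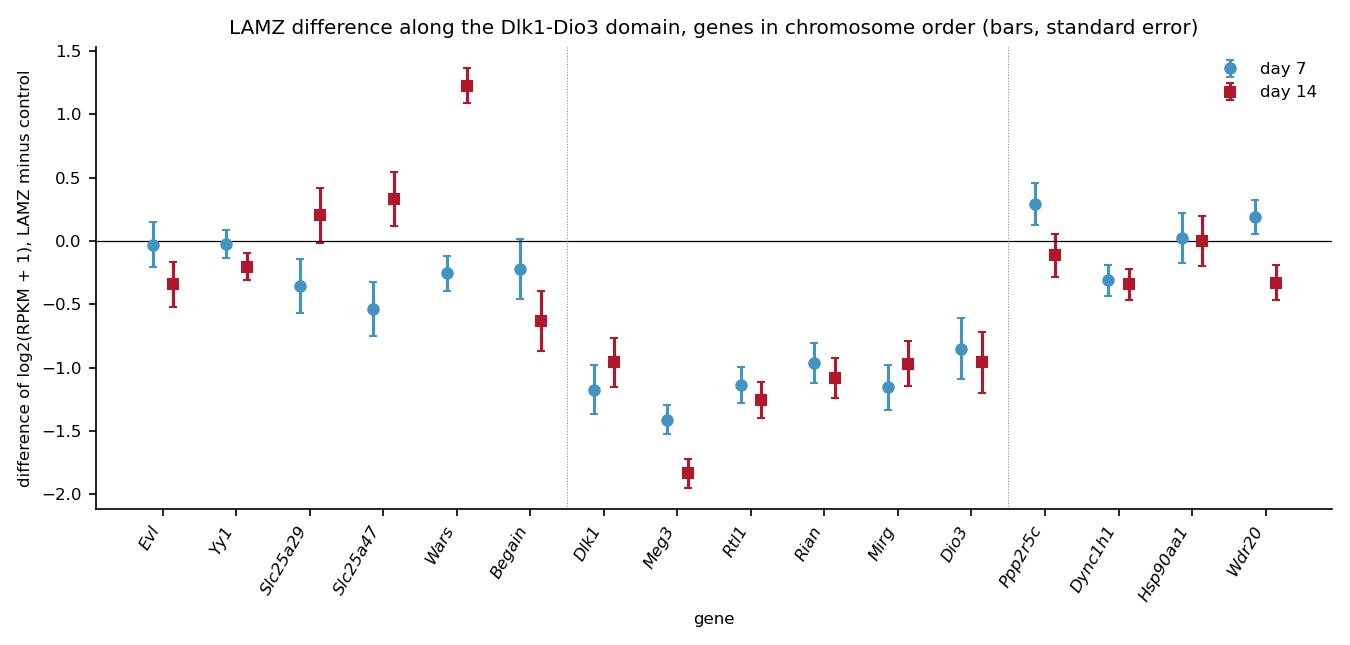
Difference of log2(RPKM + 1), LAMZ minus control, for genes in chromosome order across the Dlk1-Dio3 domain and its flanks, at day 7 (circles) and day 14 (squares), bars the standard error of the limma fit. Dotted lines bound the genes from Dlk1 to Dio3, which lay between -0.85 (Dio3, day 7) and -1.83 (Meg3, day 14). The flanking genes lay nearer 0, other than Wars at day 14 (1.23).

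The promoter windows of RefSeq (250 bases before to 50 after a start, GRCm38.p6) were searched on both strands for the cAMP response element TGACGTCA, a palindrome that reads the same on either strand. Of all 32851 windows, 588 (1.79%) hold it. Among the 10 genes, windows were listed for Meg3, Rian, Mirg, Dlk1, Peg3, Plagl1, Grb10 and Mest. The element is in 1 of the 2 windows of Meg3 and in that of Peg3, and these are shown because it is a described feature of the Meg3 promoter and because these genes lay on opposite sides of control with LAMZ. H19 and Cdkn1c are not in the table. In the Meg3 window (chr12:109540746-109541045, plus strand) the element starts 57 bases before the start, and in the Peg3 window (chr7:6730370-6730669, minus strand) 178 bases before it. The windows have a GC content of 53.7% and 61.3% and 13 CpG each, against medians of 52.7% and 7 over all windows. A match is a description of the letters, and no binding was measured. The element is in capitals.
Meg3 promoter: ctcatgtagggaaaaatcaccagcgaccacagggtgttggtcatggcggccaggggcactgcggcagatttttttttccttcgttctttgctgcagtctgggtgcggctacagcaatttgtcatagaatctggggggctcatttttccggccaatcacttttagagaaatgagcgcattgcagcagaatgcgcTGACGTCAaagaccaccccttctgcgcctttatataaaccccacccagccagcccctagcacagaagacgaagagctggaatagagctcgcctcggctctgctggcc
Peg3 promoter: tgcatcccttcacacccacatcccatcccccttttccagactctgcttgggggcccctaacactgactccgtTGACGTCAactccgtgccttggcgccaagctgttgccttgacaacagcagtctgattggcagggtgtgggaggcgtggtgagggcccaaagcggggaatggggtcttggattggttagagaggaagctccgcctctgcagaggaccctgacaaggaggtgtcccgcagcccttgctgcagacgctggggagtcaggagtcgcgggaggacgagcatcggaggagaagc

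Small RNA genes of the domain have entries of their own in the tables. Those inside host genes, 2 microRNA genes in Meg3, 4 in Rian, 15 in Mirg and 7 in Rtl1, and 13 small nucleolar RNA genes in Rian, were listed at 0 in all 8 libraries, as were the microRNA genes inside H19 and Mest. How reads lying in overlapping genes were assigned is not stated, so these zeros need not mean that the RNA was absent. Between the genes of the domain, 41 microRNA and 10 small nucleolar RNA genes are listed. The 41 microRNA genes together had 23 and 23 reads in control and 6 and 6 with LAMZ at day 7, and 23 and 17 against 5 and 3 at day 14. Divided by depth (RPM) these were 6.10 and 6.65, 1.41 and 1.15, 4.28 and 3.76, and 0.858 and 0.614. The control libraries were above the LAMZ libraries on both days. The 10 small nucleolar RNA genes had 41 and 7 reads in control and 27 and 21 with LAMZ at day 7, and 17 and 7 against 5 and 7 at day 14, which divided by depth (RPM) were 10.9 and 2.02, 6.33 and 4.03, 3.17 and 1.55, and 0.858 and 1.43. These groups overlapped at day 7, and at day 14 the control libraries were above the LAMZ libraries.

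Read above 0 in at least 2 libraries were 15 microRNA genes (Mir673, Mir337, Mir3070a, Mir3070b, Mir379, Mir411, Gm25750, Mir1197, Mir758, Mir679, Mir1193, Mir666, Mir667, Mir654 and Gm27379) and 6 small nucleolar RNA genes (AF357428, Gm23736, AF357341, Gm23787, Gm25854 and Gm22205). No size selection for small RNA is stated, so reads of a mature microRNA, of its precursor and of a long host transcript cannot be told apart. The mature forms of Mir379, Mir411 and Mir1193 printed above therefore have no level of their own.

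H19, the maternal noncoding RNA next to Igf2 (chr7:142575529-142578143, minus strand), was the highest of the 10 genes in every library. It was at 1036 and 828 RPKM in control and 2158 and 2394 with LAMZ at day 7, and at 489 and 513 against 601 and 599 at day 14. The LAMZ libraries of day 7 stood far above all others, and within each day the groups did not overlap. The mean was 2.44-fold higher with LAMZ at day 7 and 1.20-fold higher at day 14 (log2 differences 1.29 and 0.26, SE 0.15 each). The sign at day 14 turned with every library rescaled to the same sum (-0.11).

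Igf2, the paternally expressed insulin-like growth factor of the same region (chr7:142650766-142666816, minus strand), was not part of the set. It was at 215 and 199 RPKM in control and 601 and 780 with LAMZ at day 7, and at 163 and 164 against 235 and 249 at day 14. As for H19, the day 7 LAMZ libraries were the highest and the day 14 groups lay closer. Igf2 was higher with LAMZ at day 7 (log2 difference 1.72, SE 0.15, adjusted p = 0.000403, 2 of 2 libraries) and at day 14 (0.56, SE 0.15, adjusted p = 0.0276). The day 14 call was lost without day 14 control replicate 1 (adjusted p = 0.0971) or 2 (0.101), without day 14 LAMZ replicate 1 (0.0927) or 2 (0.139), with no filter on low values (0.0828) and with every library at the same sum (0.28).

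Mest, a paternally expressed gene for a hydrolase-like protein of mesodermal tissue (chr6:30723547-30748465, plus strand), was at 107 and 97.3 RPKM in control and 269 and 337 with LAMZ at day 7. At day 14 it was at 48.7 and 50.7 RPKM in control and 113 and 103 with LAMZ. LAMZ libraries were above control libraries on each day, and the day 14 LAMZ level was near that of the day 7 control. The ratio of means was 2.97 at day 7 and 2.17 at day 14 (log2 differences 1.55 and 1.10, SE 0.14 each). Mest overlaps Copg2 on the opposite strand. Copg2, a coatomer subunit, was at 5.33 and 4.74 RPKM in control and 7.65 and 8.47 with LAMZ at day 7 and was called higher there (log2 0.59, SE 0.12, adjusted p = 0.0189). That call was lost without day 7 control replicate 2 (adjusted p = 0.0761), day 7 LAMZ replicate 1 (0.0746) or day 7 LAMZ replicate 2 (0.115), and with every library at the same sum (log2 0.32, adjusted p = 0.0751). At day 14 Copg2 was at 7.05 and 6.39 against 7.73 and 7.12 RPKM and was not called (0.13, adjusted p = 0.495), and the change between days was not called either (-0.46, adjusted p = 0.242).

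Peg3, a paternally expressed zinc finger gene (chr7:6703892-6730431, minus strand), was at 11.98 and 11.6 RPKM in control and 22.2 and 19.9 with LAMZ at day 7, and at 6.62 and 7.49 against 11.8 and 11.7 at day 14. Groups within a day did not overlap, and the day 14 LAMZ libraries matched the day 7 control libraries in level. The ratio of means was 1.79 at day 7 and 1.67 at day 14 (log2 differences 0.79 and 0.67, SE 0.12 each). Its maternally expressed neighbour Zim1 (chr7:6671269-6696450, minus strand), another zinc finger gene, was at 2.16 and 1.75 RPKM in control and 10.4 and 10.1 with LAMZ at day 7, and at 1.08 and 1.04 against 4.37 and 4.20 at day 14. Zim1 rose with LAMZ on both days (log2 1.93, SE 0.12, adjusted p = 0.000128, and 1.36, SE 0.12, adjusted p = 0.000278) and was called under every alternative setting.

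Grb10, an adaptor that restrains insulin and IGF receptor signalling (chr11:11930508-12038683, minus strand), was at 87.1 and 92.3 RPKM in control and 129 and 138 with LAMZ at day 7, and at 60.5 and 65.2 against 84.3 and 79.2 at day 14. LAMZ libraries were above control libraries on both days. The ratio of means was 1.49 at day 7 and 1.30 at day 14 (log2 differences 0.57 and 0.37, SE 0.11 each), and at day 14 the difference was 0.01 with every library at the same sum.

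Cdkn1c, the inhibitor of cyclin-dependent kinases p57 (chr7:143458339-143461050, minus strand), was at 92.0 and 57.1 RPKM in control and 64.4 and 59.4 with LAMZ at day 7, and at 40.8 and 33.1 against 31.4 and 29.4 at day 14. Day 7 control replicate 1 was far above its partner and above both LAMZ libraries, so that the day 7 groups overlapped. The log2 differences were -0.23 and -0.27 (SE 0.21 each), and without day 7 control replicate 1 the first was 0.11. Plagl1, a paternally expressed zinc finger factor (chr10:13060504-13131694, plus strand), was at 18.8 and 18.3 RPKM in control and 21.3 and 22.4 with LAMZ at day 7, and at 13.4 and 12.1 against 12.3 and 12.1 at day 14. The day 14 groups overlapped. Its log2 differences were 0.22 and -0.06 (SE 0.11 each). The first turned to -0.07 with every library at the same sum, and the second to 0.13 with every library at the same median and to 0.01 without day 14 control replicate 1.

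For the 10 genes together the calls of the LAMZ comparisons are printed beside those of all genes only to place them, and nothing is read from them, since the genes were picked on these comparisons. At day 7, 4 of 10 passed as higher against 4.35% of all tested genes and 4 as lower against 8.49%. At day 14, 3 passed as higher against 6.96% and 4 as lower against 16.0%. The median log2 difference of the 10 genes was -0.00 at day 7 and -0.16 at day 14, against -0.08 and -0.15 over all genes. Both scalings moved the general balance. With every library at the same sum the median of all genes was -0.31 at day 7 and -0.43 at day 14, and the share of calls that were higher was 8.6% and 8.0% in place of 33.9% and 30.3%. With every library at the same median that share was 53.5% and 56.3%, and the median was 0.03 and 0.04. Over all genes the 1607 calls of day 7 became 994 without day 7 control replicate 1 and 545 and 696 without day 7 LAMZ replicates 1 and 2. The 2878 calls of day 14 became 1747, 1621, 1642 and 1513 without day 14 control replicates 1 and 2 and day 14 LAMZ replicates 1 and 2. Meg3, Rian, Mirg and Dlk1 were below control, and Mest, Peg3 and Grb10 above it, on both days in all 15 alternative settings. These settings refit the libraries on which the genes were picked, so the signs describe the values and add no support.

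**Figure D3:**
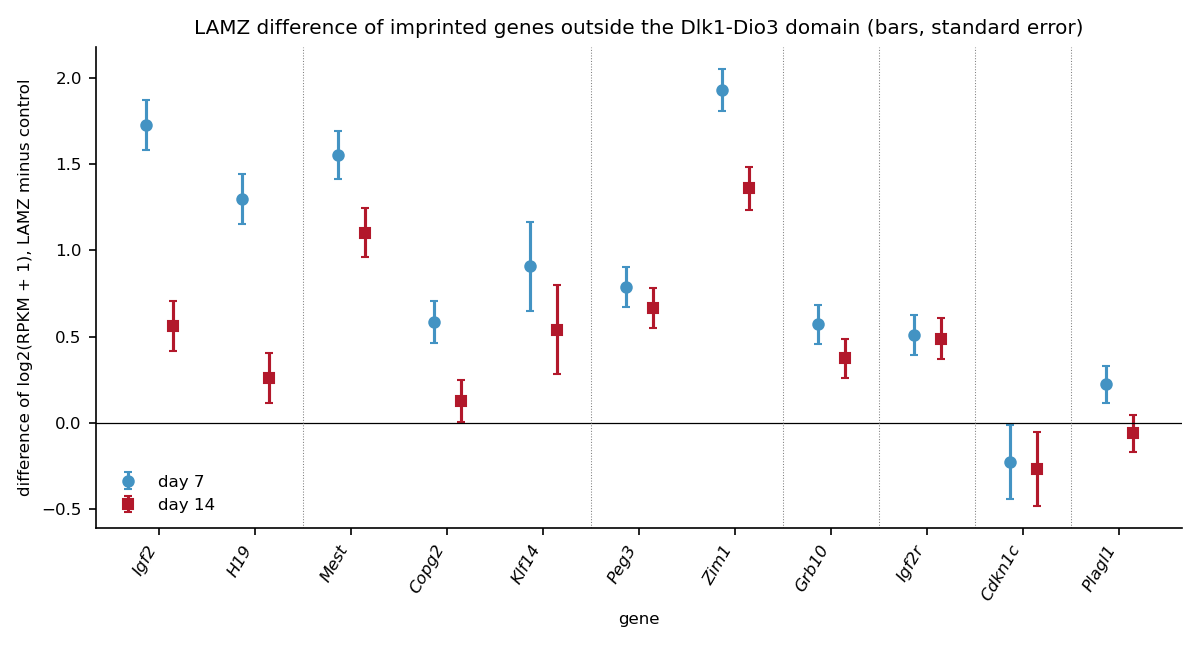
Difference of log2(RPKM + 1), LAMZ minus control, of imprinted genes outside the Dlk1-Dio3 domain at day 7 (circles) and day 14 (squares), bars the standard error of the limma fit. Dotted lines part the domains. Igf2 (1.72) and Zim1 (1.93) were the highest at day 7, and Cdkn1c lay below 0 on both days, though at 0.11 on day 7 without day 7 control replicate 1. Plagl1 on both days and H19 at day 14 change sign with a scaling, and Klf14 was added for its place near Mest.

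By group means, the order of the 10 levels began with H19 and ended with Dlk1 and Mirg in all 4 groups, and the places between them differed. In control at day 7 the order was H19, Mest, Grb10, Cdkn1c, Meg3, Rian, Plagl1, Peg3, Dlk1 and Mirg from high to low. Cdkn1c overlapped Grb10 there (57.1 to 92.0 against 87.1 to 92.3 RPKM). In control at day 14 Grb10 (60.5 to 65.2) stood above Mest (48.7 to 50.7), and Peg3 (6.62 to 7.49) lay inside the range of Dlk1 (5.28 to 8.59). With LAMZ, Plagl1 and Peg3 stood above Meg3 and Rian on both days. At day 7 with LAMZ, Plagl1 and Peg3 overlapped (21.3 to 22.4 against 19.9 to 22.2), and Rian (11.6 to 11.9) was above Meg3 (10.2 to 11.3). At day 14 with LAMZ, Meg3 (6.66 to 7.57) lay inside the range of Rian (5.48 to 7.77).

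The comparison of day 14 with day 7 asked how the genes moved as the cultures aged. The stated rule for picking them does not name it, though earlier results of these data were known. In control cells 6 of the 10 genes fell, Mest, Cdkn1c, H19, Peg3, Plagl1 and Grb10, against 2.40% of all tested genes called lower, and 0 rose, against 2.46%. The median log2 difference was -0.65, against -0.05 over all genes. Mest fell by 1.02 on the log2 scale (SE 0.14, adjusted p = 0.0109), a 2.06-fold lower mean, and H19 fell by 0.88 (SE 0.15, adjusted p = 0.0185), a 1.86-fold lower mean. Cdkn1c fell by 0.96 (SE 0.21, adjusted p = 0.0468), Peg3 by 0.67 (adjusted p = 0.0220), Plagl1 by 0.51 (adjusted p = 0.0428) and Grb10 by 0.51 (adjusted p = 0.0457). In each of these 6 genes both day 14 control libraries were below both day 7 control libraries. With every library at the same sum, in which the median of all genes was 0.16 and 86.1% of the calls were higher in place of 50.7%, 2 of the 10 were called. With no filter on low values 2 were called, and with the replicate number as a block 4.

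The calls depended on which libraries were fitted, while the differences moved less. Each such fit has fewer libraries by construction. Plagl1 and Grb10 lost their calls even without a LAMZ library, which is not in the comparison, at an unchanged log2 difference of -0.51, as did Cdkn1c at -0.96. Leaving out day 14 control replicate 1 or replicate 2 left 0 of the 10 called, by limma, and leaving out day 7 control replicate 1 left 1. The count was 3 without day 7 control replicate 2 or either day 7 LAMZ library and 5 without either day 14 LAMZ library. The calls over all genes also went from 608 to 68 and 140 without day 14 control replicate 1 or 2, and to 189 without day 7 control replicate 1. For Mest the adjusted p was 0.0794 and 0.0531 without day 14 control replicate 1 or 2, at log2 differences of -0.99 and -1.05. For H19 it was 0.115 and 0.0715 without those libraries, 0.055 without day 7 control replicate 1 and 0.124 with no filter on low values. Peg3 was lost without any of the 4 control libraries (adjusted p = 0.0514 to 0.127), Plagl1 and Grb10 without any of the 8 libraries (0.0769 to 0.141 and 0.0813 to 0.197), and Cdkn1c without any library other than day 7 control replicate 2 (0.0809 to 0.17), where its difference was -0.62 without day 7 control replicate 1. The log2 differences themselves were below 0 for these 6 genes in all 15 alternative settings.

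The 4 genes of the Dlk1-Dio3 domain were not called between days in control. Rian had a log2 difference of -0.64 (SE 0.16, adjusted p = 0.0632), Mirg of -0.73 (SE 0.18, adjusted p = 0.0594), Dlk1 of -0.47 (SE 0.19, adjusted p = 0.202) and Meg3 of -0.11 (SE 0.11, adjusted p = 0.647). Rian and Mirg passed with a pseudocount of 5 (adjusted p = 0.0382 and 0.0265) and without day 14 LAMZ replicate 1 (0.0498 and 0.0462) or 2 (0.0493 and 0.0448), and Rian also with the stricter filter (0.0394). Meg3 turned to 0.15 with every library at the same sum. Over the same interval the macrophage marker sum in control went from 468 and 612 to 1148 and 1187 RPKM, and limma called 11 of its 15 tested genes higher. Leaving out day 14 control replicate 1 or 2 left 1 or 5 of these 11 calls, and day 7 control replicate 1 left 7. Meg3 in the same libraries was at 30.1 and 30.1 and then 27.4 and 28.3 RPKM. The part of macrophage RNA in the level of Meg3 was not tested.

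With LAMZ, 8 of the 10 genes fell from day 7 to day 14, all but Mirg and Dlk1, against 9.26% of all tested genes called lower, and 0 rose, against 5.10%. The median log2 difference was -0.78, against -0.11 over all genes. H19 fell by 1.92 on the log2 scale (SE 0.15, adjusted p = 0.000552), a 3.79-fold lower mean, and Mest fell by 1.47 (SE 0.14, adjusted p = 0.000947), a 2.81-fold lower mean. Plagl1 fell by 0.79 (SE 0.11, adjusted p = 0.00397), Peg3 by 0.79 (SE 0.12, adjusted p = 0.00518), Grb10 by 0.70 (SE 0.11, adjusted p = 0.00684) and Cdkn1c by 1.00 (SE 0.21, adjusted p = 0.0201). Rian fell by 0.76 (SE 0.16, adjusted p = 0.0183) and Meg3 by 0.53 (SE 0.11, adjusted p = 0.0208). In these 8 genes both day 14 LAMZ libraries were below both day 7 LAMZ libraries. Mirg (-0.54, SE 0.18, adjusted p = 0.0779) and Dlk1 (-0.26, SE 0.19, adjusted p = 0.400) were not called, though their libraries of the 2 days did not overlap.

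Of these 8, H19, Mest, Plagl1 and Peg3 were called under all 15 alternative settings. Meg3 lost its call without any of the 4 LAMZ libraries (adjusted p = 0.0534 to 0.137) and with every library at the same sum (0.115). Cdkn1c lost it without any of the 4 LAMZ libraries (0.0763 to 0.113) and with no filter on low values (0.0651), and Rian without day 7 LAMZ replicate 1 (0.0943), day 7 LAMZ replicate 2 (0.0945) or day 14 LAMZ replicate 2 (0.101) and with every library at the same sum (0.0537). Grb10 lost it without day 7 LAMZ replicate 2 (0.0663) or day 14 LAMZ replicate 2 (0.0593). Mirg gained a call without day 14 LAMZ replicate 1 (0.0423). The count was 5 without day 7 LAMZ replicate 1, and 4 without day 7 LAMZ replicate 2 or day 14 LAMZ replicate 2. The calls over all genes went from 1797 to 664, 516, 817 and 511 without day 7 LAMZ replicate 1, day 7 LAMZ replicate 2, day 14 LAMZ replicate 1 and day 14 LAMZ replicate 2. With every library at the same sum, in which the median of all genes was 0.03, 63.6% of the calls were higher in place of 35.5%, and with every library at the same median the median was -0.01 and 50.5% were higher.

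**Figure D4:**
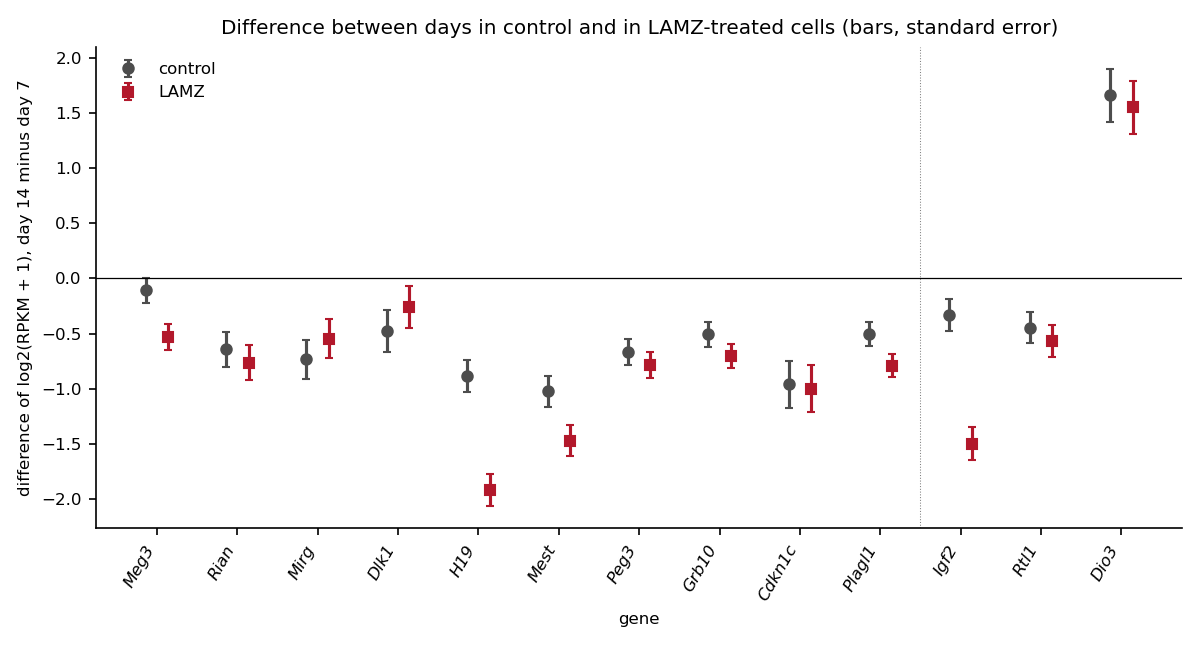
Difference of log2(RPKM + 1), day 14 minus day 7, in control (circles) and LAMZ-treated cells (squares), bars the standard error of the limma fit. The 10 genes lay at or below -0.11 in both, with H19 at -1.92 and Mest at -1.47 with LAMZ, though Meg3 in control is at 0.15 with every library at the same sum. To the right of the dotted line are Igf2, Rtl1 and Dio3, with Dio3 above 0 in both.

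Other genes of the Dlk1-Dio3 and Igf2-H19 regions moved between days in both directions. Dio3 rose by a log2 difference of 1.66 in control (SE 0.24, adjusted p = 0.0128) and 1.55 with LAMZ (SE 0.24, adjusted p = 0.00634), the means being 4.10-fold and 5.31-fold higher at day 14. The control call was lost without day 14 control replicate 1 (adjusted p = 0.0914) or 2 (0.0653) and with no filter on low values (0.0531). Igf2 was not called in control (-0.34, SE 0.15, adjusted p = 0.231) and fell with LAMZ (-1.50, SE 0.15, adjusted p = 0.00101), from 601 and 780 to 235 and 249 RPKM. Rtl1 was not called in control (-0.45, SE 0.14, adjusted p = 0.120) and fell with LAMZ (-0.57, SE 0.14, adjusted p = 0.0363), a call lost without any of the 4 LAMZ libraries (adjusted p = 0.0903 to 0.175), with a pseudocount of 5 (0.0732), with no filter on low values (0.098) and with every library at the same sum (0.15) or the same median (0.0732). Zim1 fell with LAMZ (-1.09, SE 0.12, adjusted p = 0.00186) and was not called in control (-0.52, SE 0.12, adjusted p = 0.0563). In control it was called with a pseudocount of 0.1 (-0.82, limma adjusted p = 0.0424). The change of its LAMZ difference between days was called only with a pseudocount of 5 (-0.51, limma adjusted p = 0.0476).

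Whether the LAMZ difference itself changed from day 7 to day 14 was tested as the difference of differences, in which 0.623% of all tested genes (78) were called, and 0 without day 14 control replicate 2, 2 without any LAMZ library, 5 without day 14 control replicate 1, 25 without day 7 control replicate 1 and 50 without day 7 control replicate 2. Limma called 0 of the 10 genes, with 2 of them, Meg3 and H19, at an unadjusted p under 0.05, as were 2061 of all 12514. For the 10 genes these values are a description, since the change is built from the LAMZ differences on which the genes were picked. The largest change was that of H19, -1.04 on the log2 scale (SE 0.21, adjusted p = 0.0741, from a LAMZ difference of 1.29 at day 7 to 0.26 at day 14), called with the stricter filter of 5 RPKM (0.0496) and in no other of the 15 settings. Igf2 beside it had -1.16 (SE 0.21, adjusted p = 0.0579) and was called with a pseudocount of 5 (0.0499), with the stricter filter (0.0361) and with every library at the same sum (0.046). Meg3 had -0.42 (SE 0.16, adjusted p = 0.254) and Mest -0.45 (SE 0.20, adjusted p = 0.307). For Rian (-0.12), Mirg (0.19) and Dlk1 (0.22) the sign turned without day 14 LAMZ replicate 2, day 14 LAMZ replicate 1 and day 14 control replicate 2 in that order (0.10, -0.06 and -0.09). The 95% intervals of these 3 changes were -0.64 to 0.40, -0.39 to 0.77 and -0.41 to 0.85, so a p over the threshold does not show that the LAMZ difference was the same on both days.

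Beyond the 10 genes, 50 other imprinted genes were listed and all are in the tables, of which 33 were tested. At day 7, 4 were called higher with LAMZ (Zim1, Igf2, Copg2 and Igf2r) and 2 lower (Rtl1 and Pon3), and the median log2 difference of the 33 was -0.11. At day 14, 5 were called higher (Zim1, Slc38a4, H13, Igf2 and Igf2r) and 8 lower (Ndn, Gatm, Pon2, Rtl1, Dio3, Pon3, Dcn and Sgce), with a median of -0.29. Over all tested genes 4.35% were called higher and 8.49% lower at day 7 and 6.96% and 16.0% at day 14, with medians of -0.08 and -0.15, and the lists that follow are to be read beside the same shares and medians. Both directions occurred among genes listed under either parental allele, which was not measured here. Of the 17 tested maternal genes 3 were higher and 1 lower at day 7 and 3 and 4 at day 14. Of the 16 paternal genes 1 was higher and 1 lower at day 7, then 2 and 4. Without either day 7 LAMZ library 1 maternal gene was called at day 7, and 2 without day 7 control replicate 2. At day 14, 4 maternal genes were called without day 14 control replicate 1, and 3 paternal genes without either day 14 control library or day 14 LAMZ replicate 2. The counts of 6 and 13 over both lists were 3 without either day 7 LAMZ library, and 7 and 8 without day 14 control replicate 1 and 2, and 8 without day 14 LAMZ replicate 2. With every library at the same sum, 12 were called at day 7. The day 14 call of Dcn was lost without day 14 control replicate 1 (adjusted p = 0.0576) or 2 (0.0929), without day 14 LAMZ replicate 2 (0.131) and with every library at the same median (0.0765).

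Igf2r, the receptor that clears IGF2 and is made from the maternal allele, was at 26.8 and 26.6 RPKM in control and 39.5 and 37.4 with LAMZ at day 7, and at 19.4 and 22.6 against 28.8 and 30.8 at day 14. Both LAMZ libraries were above both control libraries on each day (log2 0.51, SE 0.12, adjusted p = 0.0283, and 0.49, SE 0.12, adjusted p = 0.0207). The day 7 call was lost without any of the 4 day 7 libraries (adjusted p = 0.079 to 0.164), the day 14 call without day 14 control replicate 1 (0.0978), day 14 LAMZ replicate 1 (0.0662) or day 14 LAMZ replicate 2 (0.116), and both with every library at the same sum (0.251 and 0.415). Airn, the antisense RNA of the paternal allele that is named here for its overlap with Igf2r, was at 1.33 to 2.53 RPKM and was not called. Slc38a4, an amino acid transporter of the paternal allele, was at 13.6 and 13.4 RPKM in control at day 7 and 6.36 and 6.27 at day 14, and with LAMZ at 16.7 and 15.2 and then 11.9 and 13.2. Its control level fell between days (log2 -0.99, SE 0.11, adjusted p = 0.00659) and its LAMZ difference was called at day 14 alone (0.89, SE 0.11, adjusted p = 0.00133), while the change of that difference between days was not called (0.67, adjusted p = 0.109).

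Ndn, the paternally expressed growth suppressor necdin, was at 9.76 and 8.28 RPKM in control and 6.16 and 6.39 with LAMZ at day 7, and at 8.37 and 9.94 against 2.97 and 2.38 at day 14. The day 14 LAMZ libraries were the lowest (log2 -1.47, SE 0.14, adjusted p = 0.000374), and the change of the LAMZ difference between days was -1.01 (adjusted p = 0.0766). Pon2 and Pon3, paraoxonases that lie side by side on chromosome 6, were both lower with LAMZ at day 14 (-1.26, adjusted p = 0.000541, and -0.81, adjusted p = 0.00402). Pon3 was also lower at day 7 (-0.64, adjusted p = 0.0183), a call lost without day 7 control replicate 2 (0.0767) or day 7 LAMZ replicate 1 (0.0968) or 2 (0.0931) and with no filter on low values (0.0537). Gatm, an enzyme of creatine synthesis, was at 2.42 and 1.40 RPKM in control at day 14 and 0.0571 and 0.0683 with LAMZ (-1.43, adjusted p = 0.00501). It passed the filter through the day 14 control libraries alone and could not be fitted without either of them, and it was called with no filter on low values (0.0102). H13, a signal peptide peptidase, was at 11.7 and 11.6 RPKM in control and 19.2 and 18.97 with LAMZ at day 14 (0.67, adjusted p = 0.00782, and 0.0605 with every library at the same sum, change between days 0.72, adjusted p = 0.119).

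Between days in control, 1 of the 33 was called higher (Dio3) and 2 lower (Slc38a4 and Peg10), with a median of -0.17 against -0.05 over all genes and beside shares of 2.46% and 2.40%. With LAMZ, 2 were called higher (Dio3 and H13) and 6 lower (Igf2, Zim1, Ndn, Peg10, Dcn and Rtl1), with a median of -0.27 against -0.11 and beside shares of 5.10% and 9.26%. Leaving out day 14 control replicate 1 or 2 left 1 called in control, and the 8 calls with LAMZ became 5 without day 7 LAMZ replicate 1 or either day 14 LAMZ library and 4 without day 7 LAMZ replicate 2. The H13 call with LAMZ was lost without either day 7 LAMZ library, either day 14 LAMZ library or either day 14 control library (adjusted p = 0.055 to 0.206), with no filter on low values (0.0734) and with the replicate number as a block (0.0595). The Dcn call was lost without day 7 LAMZ replicate 2 (0.0856) or day 14 LAMZ replicate 2 (0.079), and that of Peg10 without day 7 LAMZ replicate 1 (0.0556), day 7 LAMZ replicate 2 (0.101) or day 14 LAMZ replicate 1 (0.0762). In the change of the LAMZ difference between days limma called 0 of the 33, with 10 at an unadjusted p under 0.05 (2061 of all 12514). Peg10, a retrotransposon-derived paternal gene, was at 2.67 and 2.38 RPKM in control at day 7 and 0.782 and 0.796 at day 14 (-0.98, SE 0.17, adjusted p = 0.0207). That call was lost without day 7 control replicate 1 (adjusted p = 0.0932) and without day 14 control replicate 1 (0.109) or 2 (0.0794) and with no filter on low values (0.0694).

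Cdkn1c has relatives among the inhibitors of cyclin-dependent kinases, of which all 7 listed were tested. Cdkn1a (p21) was at 75.5 and 66.9 RPKM in control and 124 and 111 with LAMZ at day 7, and at 77.8 and 91.4 against 114 and 115 at day 14. It was the single inhibitor called higher on each day (log2 0.72, SE 0.13, adjusted p = 0.0116, and 0.43, SE 0.13, adjusted p = 0.0475), and Cdkn2c was the single one called lower, at day 14 (-0.76, SE 0.17, adjusted p = 0.0172). The list's median was 0.14 at day 7 and -0.24 at day 14. Between days limma called 0 in control (3 at an unadjusted p under 0.05), and with LAMZ it called Cdkn3, Cdkn2d and Cdkn2c lower. The count at day 7 was 0 without day 7 LAMZ replicate 1. The count at day 14 was 0 without any of the 4 day 14 libraries and 1 without either day 7 LAMZ library, and the 3 calls between days became 1 without day 7 LAMZ replicate 1 or 2 or day 14 LAMZ replicate 2.

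Grb10 and Igf2 act on the insulin and IGF receptors, and 12 of 13 listed genes of that pathway were tested. At day 7, Igf2, Igf2r and Irs1 were called higher with LAMZ and none lower, with a median of 0.08. At day 14, Igf2 and Igf2r were called higher and Igf1, Grb2, Igf2bp1 and Irs1 lower, with a median of -0.22. Irs1, a docking protein of both receptors, was at 38.2 and 38.3 RPKM in control and 49.9 and 53.4 with LAMZ at day 7, and at 35.4 and 35.0 against 25.3 and 26.1 at day 14 (log2 0.42, adjusted p = 0.0344, and -0.44, adjusted p = 0.0186). Its LAMZ libraries were above control at day 7 and below it at day 14, and the change between days was not called (-0.86, SE 0.15, adjusted p = 0.0527). Igf1 was at 24.9 and 19.8 against 20.8 and 21.7 RPKM at day 7 and at 21.6 and 23.5 against 12.5 and 12.3 at day 14 (-0.81, adjusted p = 0.0041), with a change between days of -0.75 (adjusted p = 0.120). The receptors Igf1r and Insr were not called on either day. The count of 3 was 1 without any of the 4 day 7 libraries, and the count of 6 was 1, 3, 2 and 1 without day 14 control replicate 1, day 14 control replicate 2, day 14 LAMZ replicate 1 and day 14 LAMZ replicate 2.

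Dlk1 resembles the ligands of Notch, and 8 of 14 listed Notch ligands, receptors and targets were tested. Jag1, a ligand, was at 16.3 and 16.7 RPKM in control and 6.76 and 7.25 with LAMZ at day 7, and at 12.3 and 13.3 against 5.12 and 4.15 at day 14. It was lower on both days without overlap (log2 -1.13, SE 0.13, adjusted p = 0.00133, and -1.30, SE 0.13, adjusted p = 0.000362). Notch1 was also called lower on both days (-0.62 and -0.52), and Heyl and Notch3 at day 14 (-1.20 and -0.71). The list's medians were -0.50 and -0.40. The count of 2 at day 7 was 1 without day 7 control replicate 1 or either day 7 LAMZ library, and the count of 4 at day 14 was 2 without day 14 control replicate 1 or day 14 LAMZ replicate 1.

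A list of genes that act on DNA methylation and imprinted regions holds DNA methyltransferases and their partners, zinc finger factors that mark imprinted regions, and the Tet enzymes, which oxidise methylated DNA and so act toward its removal. It also holds factors outside these groups, among them Arid4a, Arid4b and Smchd1. Of 15 listed, 14 were tested. At day 7 limma called 0 (2 at an unadjusted p under 0.05), with a median of -0.06. At day 14, 5 were called lower, Arid4a, Tet2, Uhrf1, Dnmt1 and Tet3, against 16.0% of all tested genes, with a median of -0.34 against -0.15. Uhrf1, which guides the maintenance methyltransferase to newly copied DNA, was at 12.5 and 12.7 RPKM in control and 10.5 and 10.9 with LAMZ at day 7, and at 4.68 and 5.51 against 3.78 and 2.74 at day 14. It fell between days in control (log2 -1.16, SE 0.15, adjusted p = 0.0087) and with LAMZ (-1.47, SE 0.15, adjusted p = 0.0011). Dnmt1, that methyltransferase, was at 12.4 and 11.7, 9.12 and 9.68, 6.34 and 8.82, and 5.09 and 4.89 RPKM in the same order. With LAMZ 7 of the 14 fell between days, against 9.26% of all tested genes. The 5 calls of day 14 were 2 without either day 7 LAMZ library or day 14 control replicate 1, 1 without day 14 control replicate 2, 3 without day 14 LAMZ replicate 1 and 0 without day 14 LAMZ replicate 2. The 7 calls were 1 without day 7 LAMZ replicate 1 or 2 or day 14 LAMZ replicate 2 and 4 without day 14 LAMZ replicate 1. In control the count of 1 was 0 without day 14 control replicate 1 and 2 without day 14 control replicate 2. DNA methylation itself was not measured.

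Of 24 listed long noncoding RNAs outside the domain, 21 are in the tables and 18 were tested. Their median log2 difference was 0.39 at day 7 and 0.57 at day 14. Over all genes the medians were -0.08 and -0.15, and 0.03 and 0.04 with every library at the same median. The difference of the list from all genes was not tested. Miat and Snhg6 were called higher with LAMZ on both days, and at day 14 also Snhg1, Snhg8 and Rmrp. Malat1, a nuclear RNA, was at 863 and 1018 RPKM in control and 542 and 518 with LAMZ at day 7, and at 1308 and 1419 against 837 and 864 at day 14. It was the single one called lower (log2 -0.82, SE 0.13, adjusted p = 0.00700, and -0.68, SE 0.13, adjusted p = 0.00885), and its libraries did not overlap within a day. The count of 3 at day 7 was 1 without day 7 LAMZ replicate 1 and 5 without either day 7 control library.

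Genes whose pattern over the 8 libraries was most like that of Meg3 were ranked among 5602 genes with a mean of at least 5 RPKM by the root mean square difference of centred log2 values. The 5 nearest were Lgals9 (0.10), Axl (0.12), Fam198b (0.13), Cemip (0.15) and Arhgdib (0.16), against a median of 0.82 over the genes compared. Lgals9 was at 23.1 and 25.7 RPKM in control and 8.997 and 9.34 with LAMZ at day 7, and at 19.9 and 22.5 against 5.62 and 5.75 at day 14. Axl was at 30.9 and 25.4 against 10.6 and 10.8 and at 26.8 and 30.3 against 6.47 and 6.92 in the same order. Rtl1 was nearer to Meg3 (0.27) than Rian (0.37, at rank 112), Mirg (0.37) and Dlk1 (0.37) were. Mirg fell under the level cut and was not ranked. The added 1 RPKM shrinks the differences of genes at low levels, so these distances depend on level. The pattern of Meg3 includes the LAMZ difference it was picked on, and the distances are a description with no test.

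**Figure D5:**
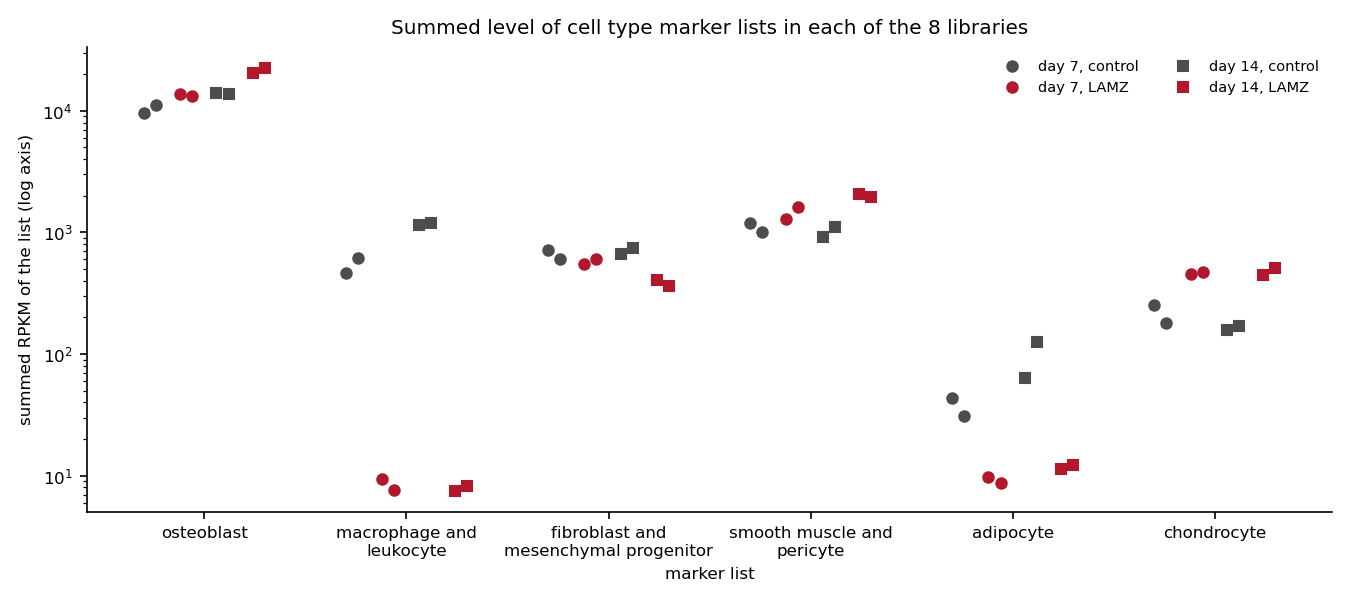
Summed RPKM of 6 marker lists in each of the 8 libraries, on a log axis, circles for day 7 and squares for day 14, each point a library. Macrophage and leukocyte genes stood at 468 to 1187 in control and at 7.55 to 9.48 with LAMZ, and osteoblast genes at 9652 or more in every library.

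Calls in the marker lists are given for the comparisons with LAMZ and between days. At day 7 with LAMZ, limma called 13 of 15 tested macrophage genes lower, 6 of 11 osteoblast genes higher and 6 of 8 fibroblast and progenitor genes lower, with 1, Lum, higher. At day 14 these counts were 14 lower, 6 higher and 7 lower. Among the macrophage genes called on both days are C1qa, C1qb, C1qc, Tyrobp and Laptm5. These were at 0 in all 4 LAMZ libraries and passed the filter through the control libraries alone. The filter thus shaped their calls, and the macrophage counts are given as a description, with no result drawn from them. All 7 tested smooth muscle genes were called higher at day 14 and 2 at day 7. Of 6 tested adipocyte genes, 2 were called lower at day 7 and 4 at day 14, and of 7 chondrocyte genes, 4 higher at day 7, and 5 higher and 1 (Sox9) lower at day 14. The fibroblast count of 7 at day 7 was 4 without day 7 LAMZ replicate 1, and the adipocyte count of 4 at day 14 was 2 without either day 14 LAMZ library. Both tested skeletal muscle genes, Acta1 and Des, were called higher at day 14, where Des is counted in the smooth muscle list as well, and limma called 0 at day 7 (0 at an unadjusted p under 0.05) and 0 in the change between days (2). Tek, the tested endothelial gene, was called lower on both days, a call lost at day 7 without day 7 control replicate 1 or either day 7 LAMZ library and at day 14 without any of the 4 day 14 libraries.

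Between days with LAMZ, the comparison in which 8 of the 10 imprinted genes fell, 6 of 11 osteoblast genes were called higher and 1 (Runx2) lower, 5 of 7 smooth muscle genes and both skeletal muscle genes (Des in both lists) higher, and 4 of 8 fibroblast and progenitor genes lower. Comp was called higher and Col9a1 lower among chondrocyte genes, and Pparg higher among adipocyte genes. Limma called 0 of 15 macrophage genes (0 at an unadjusted p under 0.05) and 0 endothelial genes (0). The macrophage count says nothing of a change with LAMZ, since 7 to 9 of the 16 genes were at 0 in each LAMZ library and C1qa, C1qb, C1qc, Tyrobp and Laptm5, at 0 in all 4, passed the filter through the control libraries alone. The osteoblast count of 7 was 1 without either day 7 LAMZ library or day 14 LAMZ replicate 2 and 4 without day 14 LAMZ replicate 1. The smooth muscle count of 5 was 2 without day 7 LAMZ replicate 1 or day 14 LAMZ replicate 2 and 3 without day 7 LAMZ replicate 2 or day 14 LAMZ replicate 1. The fibroblast count of 4 was 2 without day 7 LAMZ replicate 2 or day 14 LAMZ replicate 2, and the skeletal muscle count of 2 was 1 without day 7 LAMZ replicate 1 or day 14 LAMZ replicate 1. The chondrocyte count of 2 was 1 without either day 7 LAMZ library or day 14 LAMZ replicate 2 and 4 without either day 7 control library, and the adipocyte count of 1 was 0 without any LAMZ library or day 14 control replicate 2.

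Between days in control, beside the 11 macrophage genes, Bglap, Bglap2 and Dmp1 of the osteoblast genes, Cd34, Lpl and Comp were called higher and Col2a1 lower. Limma called 0 smooth muscle genes (2 at an unadjusted p under 0.05), 0 skeletal muscle genes (1) and 0 endothelial genes (0). The osteoblast count of 3 was 0 and 1 without day 14 control replicates 1 and 2 and 5 without day 7 control replicate 2. The fibroblast count of 1 was 0 without either day 14 control library, the adipocyte count of 1 was 0 without day 14 control replicate 2, the chondrocyte count of 2 was 1 without either day 14 control library, and the smooth muscle count was 1 without day 7 control replicate 2.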

How the data were processed

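The authors sequenced total RNA on an Ion Proton and deposited RPKM per gene symbol from CLC Genomics Workbench, aligned to mm10 by their notes. Its version, the strand of counting and any scaling between libraries are not stated. The value column of day 7 LAMZ replicate 1 is headed D7_V1_Rep1, unlike the others. Its label says LAMZ and was followed, and whether V1 is LAMZ is not stated. Dropping 4 entries with repeated symbols left 51822 of 51826, and 47508 (91.7%) matched GENCODE M21 (GRCm38), the source of gene positions. Mapped reads were recovered as the depth at which low values (under 15 reads) of genes with 1 exon and 1 transcript are whole within 0.02.

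Genes at 1 RPKM or more in at least 2 libraries (12514) were fitted as log2(RPKM + 1) by limma 3.58.1 (R 4.3.3) with a mean-variance trend, 4 groups and 4 residual degrees of freedom. P-values were adjusted by Benjamini-Hochberg, with calls under 0.05. The code was tested on simulated data. Alternatives were pseudocounts of 0.1 and 5, no filter, a filter at 5 RPKM, each library at the same sum or median, replicate number as a block, and leaving out each library.

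The 10 genes and the lists were chosen with earlier results of these data known. Named from each list are up to 3 called genes per direction and comparison, with the largest differences and no overlap of libraries, and Igf2, Rtl1, Dio3 and Begain whatever their values. Other called genes are listed by name only, or were described after their values were seen.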

Additional observations from a re-analysis of the deposited data

Results flagged for a closer look

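In 4 listed genes the difference of differences (LAMZ against control, day 14 against day 7) was called. For Wars and Col14a1 it is a change of the LAMZ difference, and for C1qb and C1qc it only restates the change in control, since all 4 LAMZ libraries are at 0. Values are RPKM of replicates 1 and 2.

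Wars changed by 1.48 (log2, SE 0.20, adjusted p = 0.0355), with 11.2 and 9.88 in control and 8.37 and 8.91 with LAMZ at day 7, and 8.64 and 10.1 against 25.6 and 21.0 at day 14. The call was lost with no filter (adjusted p = 0.103), with the replicate block (0.0626) and without any library other than day 7 control replicate 2 (0.0648 to 0.135).

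C1qb changed by -1.44 (SE 0.18, adjusted p = 0.0287), with 30.7 and 37.7 against 0 and 0 at day 7 and 91.2 and 97.4 against 0 and 0 at day 14. C1qc changed by -1.20 (SE 0.20, adjusted p = 0.0487), with 18.4 and 22.4 against 0 and 0, then 51.8 and 44.2 against 0 and 0. With LAMZ at 0 on both days, the size of the LAMZ difference on either day is not known and a change of it is not shown. Both calls were lost with a pseudocount of 0.1 (0.0713 and 0.135), with no filter (0.102 and 0.128) and with the replicate block (0.0518 and 0.0816), and that of C1qc with every library at the same median (0.0667). C1qb was lost without any library other than day 7 control replicate 2 (0.057 to 0.124), and C1qc without any of the 8 libraries (0.0553 to 0.168).

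Col14a1 changed by -1.41 (SE 0.15, adjusted p = 0.0243), with 36.7 and 35.4 against 15.2 and 16.8 at day 7 and 37.6 and 37.9 against 5.87 and 5.46 at day 14. The call was lost with no filter (0.0629) and without either day 14 control library or any LAMZ library (0.0808 to 0.119).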

How the results depend on the processing

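Each result was refitted under 7 alternative settings and without each of the 8 libraries in turn, where a group with a single library is assumed to vary like the others.

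At day 7 the 1607 genes called between LAMZ and control became 951 with no filter, 3619 with every library at the same sum, and 545 to 1396 without a library. At day 14 the 2878 became 5868 at the same sum and 1513 to 3138 without a library. Between days in control the 608 became 203 with no filter, 1155 at the same sum and 68 to 488 without a library. Between days with LAMZ the 1797 became 1091 with no filter and 511 to 1925 without a library. The 78 calls of the change between days became 34 and 166 with pseudocounts of 0.1 and 5, 0 with no filter (limma), 133 with the stricter filter and 0 to 50 without a library.

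Of the other imprinted genes, the 6 called at day 7 became 12 at the same sum and 3 to 7 without a library, the 13 at day 14 became 7 to 14 without a library, the 3 between days in control became 1 with no filter, 6 at the same sum and 1 to 3 without a library, and the 8 between days with LAMZ became 4 to 9 without a library. Among the 10 genes, the count called lower was 6 between days in control and 0 to 5 without a library, and 8 with LAMZ and 4 to 8 without a library. A count does not name the same genes: without either day 14 LAMZ library the 5 in control hold Rian and Mirg and lack Plagl1, Grb10 and Cdkn1c.

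With the replicate number as a block the calls were 1376, 2700, 432, 1548 and 17 in the same order. Deviations of replicate 1 from its group mean were correlated between groups at -0.0342 to 0.0776, so the numbers do not pair, and the calls lost with the block are not weaker effects.

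No filter tests 29944 genes and the stricter filter 6502, so adjustment differs by construction. At the same sum the median of all genes was -0.31, -0.43, 0.16 and 0.03 in the first 4 comparisons. The most abundant RNA, Rn7s1, was at 84125 and 102592 RPKM in control and 144107 and 130457 with LAMZ at day 7. At day 14 it was at 60044 and 51877 against 89986 and 100287. The libraries summed to 286747 to 437003 RPKM, and Rn7s1 counts in that sum. The part of Rn7s1 in the same-sum moves and the cause of the other moves were not tested.

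With 2 libraries a group, not known to be separate cultures, the p-values describe these libraries. Cell mixture, allele of origin and DNA methylation were not measured. The LAMZ differences of the 10 genes are a description, since the genes were picked on them, and nothing is read from their calls.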
